A study of Mus musculus with 28 samples.

Results

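The 9 genes described here encode the enzymes that write and erase DNA methylation, together with a reader of the mark. They are Dnmt1, Dnmt3a, Dnmt3b and Dnmt3l, Tet1, Tet2 and Tet3, Tdg and Mbd2, found by gene name, each as 1 row among the 45706 genes of both expression tables. Their levels were compared in mIMCD-3, epithelial cells that derive from the kidney of an SV40 transgenic mouse, where they line the inner medullary collecting duct. The 28 RNA-seq libraries comprised 4 each of polyclonal wild-type cells, of the monoclonal line WT5 and of subclones 1 to 5. WT5 grew from a single sorted cell of the polyclonal line, and each subclone from a single sorted cell of WT5 that was expanded for about 6 weeks, so each of these 6 lines is 1 clone. Wild-type here means not edited by CRISPR-Cas9. No group was treated, and RNA of every group was taken 4 days after full confluency.

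DNA methyltransferases place a methyl group on cytosine, mostly where it is followed by guanine (CpG). Dnmt1 copies the pattern to the new strand after replication, Dnmt3a and Dnmt3b set new marks, and Dnmt3l is a germline cofactor of the Dnmt3 enzymes without activity of its own. The Tet proteins oxidise methylcytosine, and the glycosylase Tdg excises some of the oxidised bases so that base excision repair can restore cytosine. Mbd2 binds methylated CpG and recruits the NuRD chromatin remodelling complex. In differentiated cells, dense CpG methylation at a promoter is usually found with a silent gene, and germline genes are the best known case. DNA methylation itself was not measured in these libraries.

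Several of these genes start in CpG-rich sequence, and the 250 bases upstream of a RefSeq start site (GRCm38.p6, read on the gene's strand) are shown for 4 of them because they differ in RNA level: Dnmt1 and Tet2, which moved in opposite directions between WT5 and polyclonal cells, Tet3, which was low in subclone 4, and Dnmt3l, which was listed at 0 in nearly all libraries. Capitals mark each CpG, the site that these enzymes act on. Of 3 Dnmt1 windows the one with the most CpGs is shown, and it lies downstream of the other start sites, within the gene as read from them. For Dnmt3l the most upstream of 3 is shown. Each of the 4 windows lies inside the span that GENCODE gives for its gene (chr6:83362373-83459084 for Tet3). None is therefore sequence upstream of the whole gene. Windows of 8 of the 9 genes were examined, with Mbd2 left out, and the median over 32851 such windows of all genes was 6 CpGs.
Dnmt1, chr9:20952624-20952873, minus strand: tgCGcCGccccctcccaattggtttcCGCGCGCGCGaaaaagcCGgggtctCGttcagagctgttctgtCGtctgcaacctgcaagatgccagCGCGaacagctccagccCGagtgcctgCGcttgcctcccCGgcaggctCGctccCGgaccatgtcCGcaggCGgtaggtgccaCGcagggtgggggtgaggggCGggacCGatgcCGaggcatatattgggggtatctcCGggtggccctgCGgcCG
Tet2, chr3:133544391-133544640, minus strand: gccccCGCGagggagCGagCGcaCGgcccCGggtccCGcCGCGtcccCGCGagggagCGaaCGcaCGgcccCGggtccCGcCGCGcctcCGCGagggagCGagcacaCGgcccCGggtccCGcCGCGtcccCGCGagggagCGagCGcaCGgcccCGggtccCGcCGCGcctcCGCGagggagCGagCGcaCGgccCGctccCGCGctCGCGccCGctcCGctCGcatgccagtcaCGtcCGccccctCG
Tet3, chr6:83441679-83441928, minus strand: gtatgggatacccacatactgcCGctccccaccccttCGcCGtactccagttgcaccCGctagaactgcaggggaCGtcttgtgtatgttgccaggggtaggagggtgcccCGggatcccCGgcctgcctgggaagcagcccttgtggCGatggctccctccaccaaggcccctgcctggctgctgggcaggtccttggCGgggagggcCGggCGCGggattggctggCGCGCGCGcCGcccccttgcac
Dnmt3l, chr10:78042037-78042286, plus strand: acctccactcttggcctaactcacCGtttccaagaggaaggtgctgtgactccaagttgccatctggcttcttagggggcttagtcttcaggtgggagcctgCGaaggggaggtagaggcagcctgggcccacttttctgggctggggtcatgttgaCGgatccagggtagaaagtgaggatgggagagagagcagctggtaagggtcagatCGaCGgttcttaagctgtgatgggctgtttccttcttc
The Tet2 window held 51 CpGs, a number that 0.067% of all windows reach. The Dnmt1 window held 26 CpGs (9.59% of windows have as many) and the Tet3 window 17 (23.5%), whereas this Dnmt3l window held 5 (55.6%). The other start sites of Dnmt1 had 7 and 2 CpGs upstream, and those of Dnmt3l 4 and 3. These counts describe the sequence and not its methylation.

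Values are TPM (transcript abundance per fixed total of transcripts), which are scaled for transcript length, so genes can be set beside each other within a library. TPM keeps no read depth, so the number of reads behind a value is unknown and no counting error can be given. Between 16270 and 19272 genes had a TPM above 0 in a library. Reads were 50 bp and single-end for the polyclonal line but 150 bp and paired-end for WT5, which was run at another time. Line and sequencing therefore cannot be told apart in that comparison. The read layout of the subclones was not given separately. Subclone values were deposited apart from those of WT5, so in each subclone against WT5 line and deposit cannot be told apart either. This concerns above all differences from WT5 that all subclones share. The epithelial markers summed to between 1764 and 3151 TPM per library, with the collecting duct water channel Aqp2 at 0 in all groups, while fibroblast markers reached at most 2.15 TPM, immune markers 4.71 and endothelial markers 0.29. Subclone 3 replicate 2 and subclone 5 replicate 1 stood apart from the other libraries of their lines: transcripts of 6000 bases or more lay lower there by a median of -0.31 and -0.32 on the log2 scale, against -0.12 to 0.18 in the rest. Tet1, Tet3, Dnmt3a and Tet2 have transcripts of 14369, 10904, 9685 and 9179 bases, so the comparison among subclones is also given without these libraries. The libraries of a line are called biological replicates in the study's methods and technical ones in a figure legend, and the p-values measure only the spread between them.

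The first comparison asks how a line grown from 1 cell differs from the mixed population it came from. For it, log2(TPM) was z-score transformed within each library and fitted with limma, where a z-score difference of 1 corresponds to 8.56-fold. A gene passed the test at a Benjamini-Hochberg adjusted p below 0.01 and was differentially expressed when its z-score difference was also above 1 in size. Of the 8 members tested, Dnmt1, Dnmt3a and Dnmt3b were higher in WT5 and Tet2 was lower, while Tet1, Tet3, Tdg and Mbd2 did not pass. Over all 13723 genes, 65.5% passed, 34.5% as higher and 30.9% as lower in WT5, so 4 of 8 members is no larger a share than the background. None of the members was differentially expressed, against 5.43% of genes. The median log2 difference was 0.27 over the members and 0.24 over all genes, and a log2 difference near 0.24 is therefore no change relative to other genes.

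**Figure D1:**
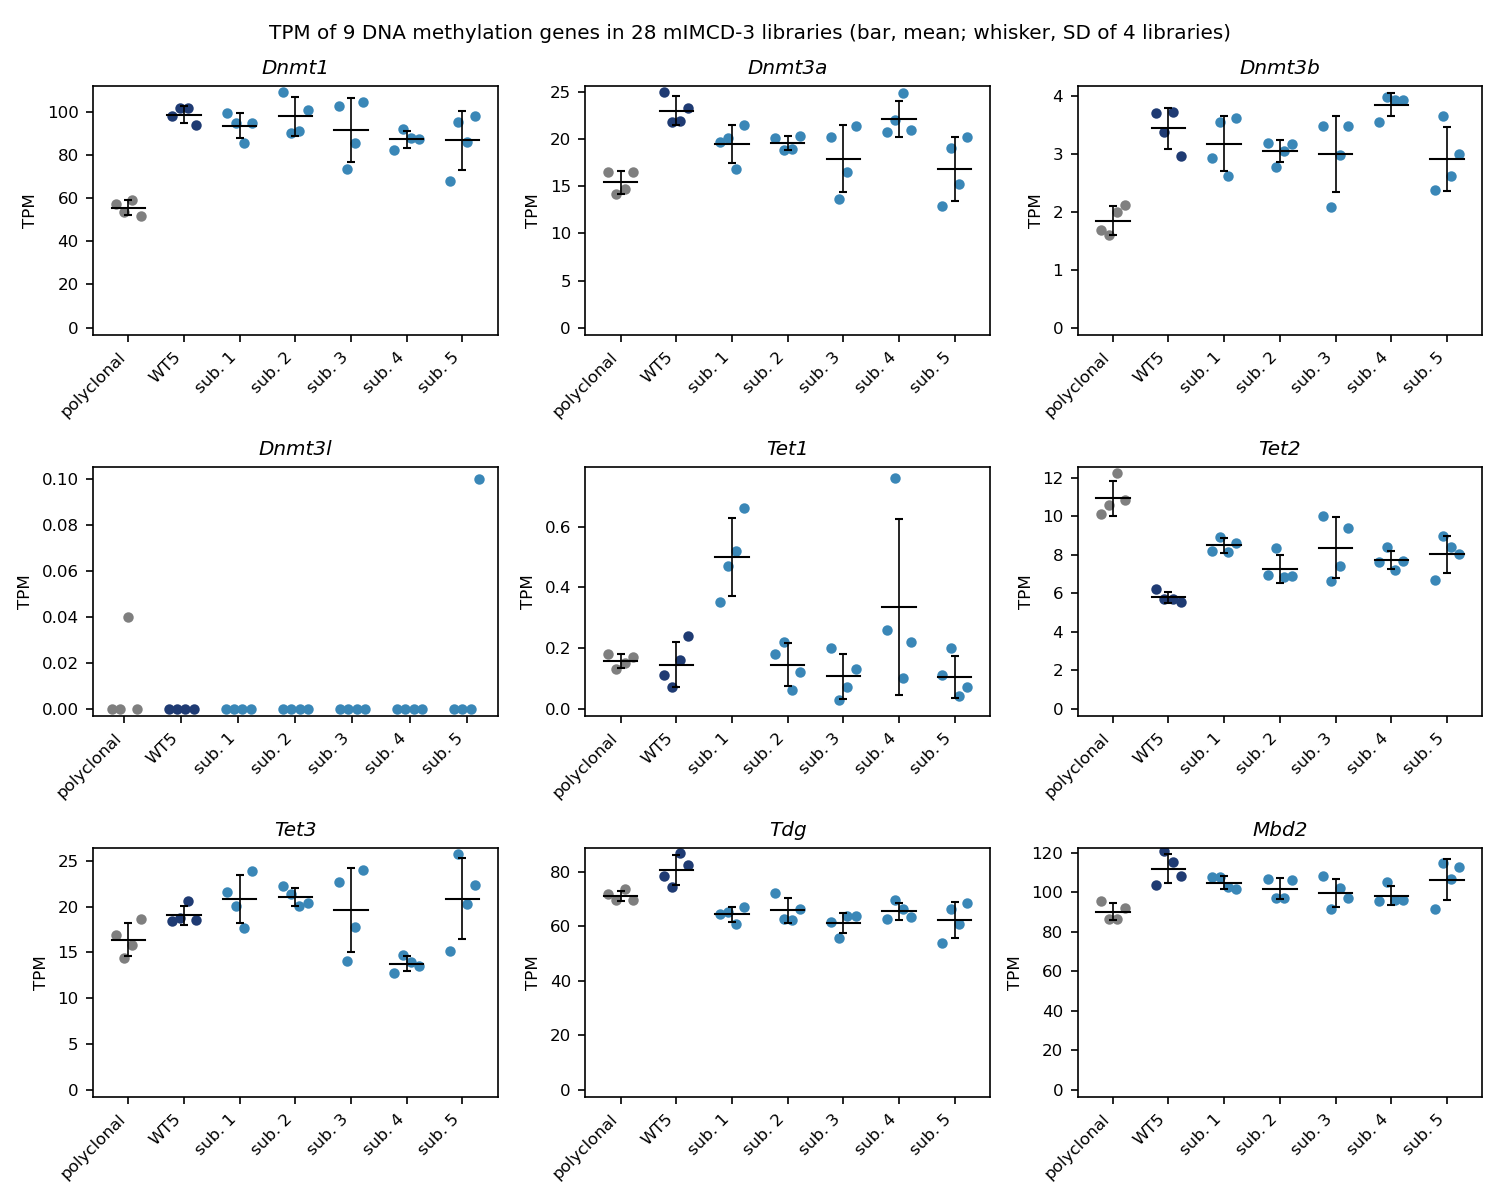
TPM (linear axis from 0) of each of the 9 genes in the 7 groups, with 1 point per library, a bar at the mean and a whisker of 1 SD of 4 libraries (points only for Dnmt3l). Dnmt1 and Dnmt3b lie lower in all polyclonal libraries than in all other libraries except Dnmt3b in 1 library of subclone 3, Tet2 lies lowest in WT5, and Tet3 is low in all 4 libraries of subclone 4.

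Dnmt1, the maintenance methyltransferase, was the most abundant of the writers. Its TPM was 57.3, 53.8, 59.4 and 51.9 in the polyclonal libraries and 97.9, 102, 102 and 93.8 in WT5. The groups did not overlap, and WT5 stood 1.78-fold above polyclonal cells (z-score difference 0.204, SE 0.0148, adjusted p = 8.1e-06, log2 difference 0.83). With the trend of each library on transcript length and GC content taken out the z-score difference was 0.112 (adjusted p = 3.6e-04). The 62 expressed genes that start within 2 Mb of Dnmt1 had a median log2 difference of 0.46, with 11 below 0. The genes of chromosome 9 had a median of 0.21 and all expressed genes one of 0.27. In bulk RNA, a change in the share of cells that express a gene and a change in RNA per cell cannot be told apart. Of 14 proliferation genes, a group whose transcripts often move with Dnmt1, 4 passed as higher and 6 as lower in WT5, and of 9 tested kidney epithelium genes 5 were higher and 2 lower; their part in the difference was not tested. In the subclones Dnmt1 averaged 86.8 to 97.9 TPM, below the 98.8 ± 3.75 (SD, n = 4) of WT5, but none of the 5 differences passed (adjusted p from 0.154 to 0.965). The lowest subclone values, 68.0 and 73.6, were those of subclone 5 replicate 1 and subclone 3 replicate 2, the libraries low in long transcripts.

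Dnmt3b, a de novo methyltransferase, was the least abundant active writer at 1.69, 1.60, 2.00 and 2.12 TPM in polyclonal cells and 3.71, 3.39, 3.73 and 2.97 in WT5. The ranges were separate, with a 1.86-fold difference of means (z-score difference 0.212, SE 0.0356, adjusted p = 9.0e-04, log2 difference 0.90). Its surroundings were higher in WT5 as well: the 50 expressed genes that start within 2 Mb of Dnmt3b had a median log2 difference of 0.74, and the genes of chromosome 2 one of 0.68, against 0.27 over all expressed genes. Dnmt3a, its close relative, was found at 16.5, 14.2, 14.7 and 16.5 TPM in polyclonal cells and 25.0, 21.8, 21.9 and 23.3 in WT5. All WT5 libraries lay above all polyclonal ones, by 1.49-fold in the means (z-score difference 0.115, SE 0.0264, adjusted p = 0.0047). The Dnmt3a call was the least firm. It was lost in 3 of 8 fits that left out 1 library (without polyclonal replicate 2, adjusted p = 0.0153, without polyclonal replicate 3, 0.0154, without WT5 replicate 4, 0.0126), and when the trend of each library on transcript length and GC content was taken out the difference fell to 0.0173 (adjusted p = 0.57). Its exons also overlap an antisense gene, Dnmt3aos, and whether the counting used strand was not given.

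Dnmt3a was more abundant than Dnmt3b in every library. The ratio of Dnmt3a to Dnmt3b was 8.43 ± 1.09 (SD, n = 4) in polyclonal cells, 6.73 ± 0.835 in WT5 and between 5.75 and 6.43 on average in the subclones, so the ranges of polyclonal cells (7.34 to 9.76) and WT5 (5.87 to 7.86) overlapped. Dnmt1 made up 76.2% ± 1.96 of the summed TPM of Dnmt1, Dnmt3a and Dnmt3b in polyclonal cells, 78.9% ± 1.37 in WT5 and 77.1% to 81.5% in the subclones. The sum itself was 72.9 ± 3.34 TPM in polyclonal cells and 125 ± 3.43 in WT5.

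Dnmt3l, the germline cofactor, was listed at 0 in every library except polyclonal replicate 3 (0.04 TPM) and subclone 5 replicate 4 (0.1 TPM). It therefore entered no fit across genes except the alternative with no filter. The exact permutation test of WT5 against polyclonal cells gave p = 1 (two-sided), where the smallest p that 4 against 4 libraries allow is 0.0286.

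Tet2, an oxidase of methylcytosine, changed in the opposite direction to the writers. Its TPM was 10.1, 10.6, 12.2 and 10.9 in polyclonal cells and 6.22, 5.69, 5.68 and 5.56 in WT5. No value was shared between the groups, and WT5 had 0.529 times the polyclonal mean (z-score difference -0.370, SE 0.0220, adjusted p = 2.7e-06, log2 difference -0.92). This was the largest change of the 8 members in that comparison, and it passed under each of the 10 other settings and each of the 8 fits without 1 library. The genes around Tet2 were lower too, though by less: the 12 expressed genes within 2 Mb had a median log2 difference of -0.45, with 9 below 0, and the 37 within 5 Mb one of -0.44, with 24 below 0, while the genes of chromosome 3 had -0.14 and all expressed genes 0.27. What these genes share besides position was not tested.

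The subclones lay between these levels. Tet2 read 8.22, 8.93, 8.15 and 8.64 TPM in subclone 1, 6.93, 8.33, 6.83 and 6.88 in subclone 2, and 10.0, 6.66, 7.41 and 9.40 in subclone 3. It read 7.63, 8.39, 7.23 and 7.68 in subclone 4, and 6.68, 8.97, 8.39 and 8.04 in subclone 5. All 20 subclone values were above the highest WT5 value of 6.22 and below the lowest polyclonal value of 10.1. The rise over WT5 passed in subclone 1 (1.47-fold, z-score difference 0.182, adjusted p = 3.1e-04), subclone 3 (1.45-fold, 0.174, adjusted p = 0.0035), subclone 4 (1.34-fold, 0.132, adjusted p = 0.0012) and subclone 5 (1.39-fold, 0.169, adjusted p = 0.0011). In subclone 2 the 1.25-fold difference did not pass (z-score difference 0.108, adjusted p = 0.023). These 5 comparisons share the 4 WT5 libraries, so they are not independent of each other. Each also sets separately deposited libraries side by side, so line and deposit cannot be told apart in this shared rise. The call in subclone 3 was lost without WT5 replicate 2 (0.0132), 3 (0.0136) or 4 (0.0134) or without subclone 3 replicate 4 (0.0106). No difference in Tet2 among the subclones passed (F = 2.71, adjusted p = 0.132).

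Of all genes tested against WT5, the share that passed was 26.3%, 26.0%, 19.5%, 37.3% and 21.9% for subclones 1 to 5 in turn. The members passed in 3 of 8, 0 of 8, 1 of 8, 2 of 8 and 1 of 8 cases in the same order. In subclone 2, 5 of the 8 members had an unadjusted limma p below 0.05, against 51.5% of all genes, and the unequal-variance test called 0. Differential expression was called for no member, and for 0.152%, 0.144%, 0.173%, 0.202% and 0.173% of all genes.

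**Figure D2:**
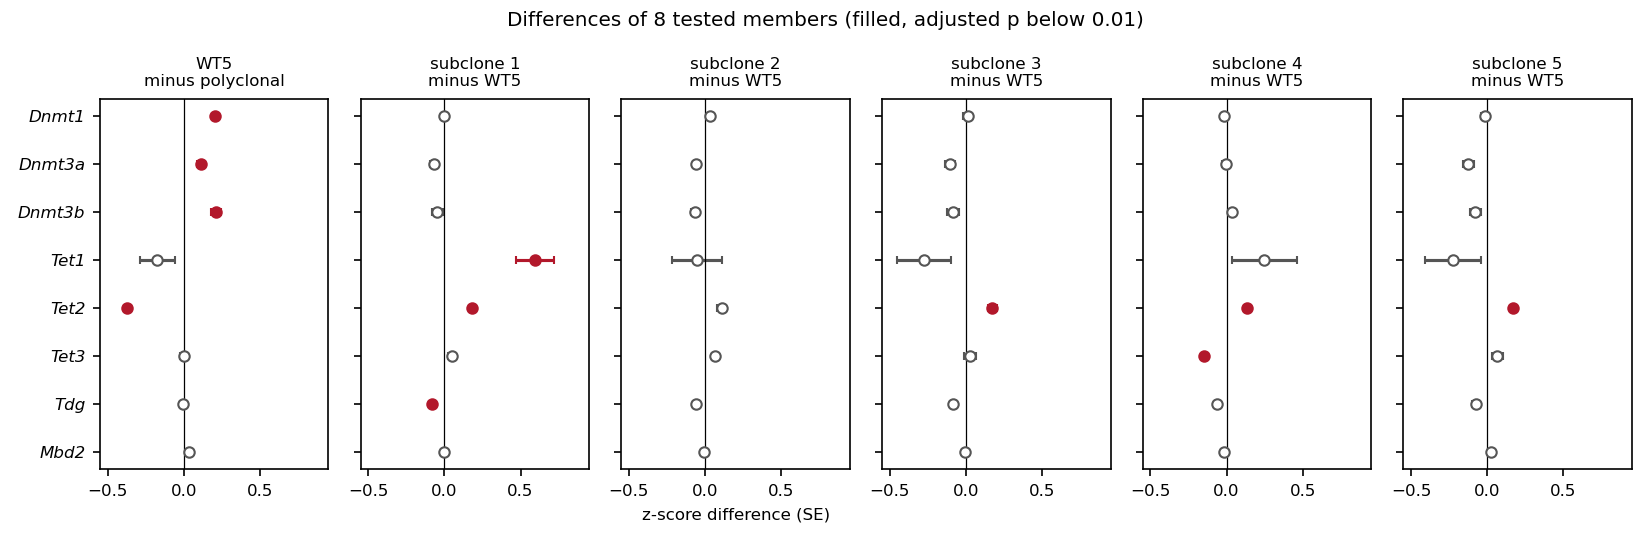
Differences in z-score of log2(TPM), with SE, of the 8 tested members in WT5 against polyclonal cells and in each subclone against WT5, filled where the adjusted p was below 0.01. Tet2 lies to the left of 0 in WT5 and to the right in each subclone, while Tet3 lies left of 0 among the subclone comparisons in subclone 4 alone.

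Tet3, the most abundant of the 3 oxidases, was found at 16.9, 14.3, 15.8 and 18.6 TPM in polyclonal cells and 18.5, 18.7, 20.6 and 18.5 in WT5. The ranges met, and the z-score difference was 0.000992 (SE 0.0272, adjusted p = 0.976). The direction depended on the scaling: with length and GC trends taken out Tet3 was lower in WT5 (-0.125, adjusted p = 1.7e-04). In subclone 4 its TPM was 12.8, 14.8, 14.0 and 13.5, and all 4 values lay under the WT5 range. Tet3 there was 0.721 times the WT5 mean (z-score difference -0.147, SE 0.0170, adjusted p = 3.1e-04), a call kept under each of the 11 other settings and each of the 8 fits without 1 library. The other subclones averaged 19.6 to 21.0 TPM, and none differed from WT5 past the threshold (adjusted p from 0.0166 to 0.634).

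The fit over the 20 subclone libraries alone compares clones within 1 table. Over all 14031 genes, 24.6% differed among the subclones, and 2 of the 8 members did, Tet3 (F = 10.5, adjusted p = 0.0012) and Tet1 (F = 6.54, adjusted p = 0.0096). For Tet3, subclone 4 lay below subclones 1, 2, 3 and 5, with adjusted p between 9.9e-04 and 0.0050. Tet1 was higher in subclone 1 than in subclones 3 and 5. Of the 80 pairs of subclones over the 8 members these 6 passed, against 9.48% of pairs over all genes. On log2(TPM) without z-scores neither passed (Tet3, adjusted p = 0.0283). Without subclone 3 replicate 2 and subclone 5 replicate 1, the libraries low in long transcripts, the F of Tet3 was 21.7 (adjusted p = 6.4e-05) and that of Tet1 5.92 (adjusted p = 0.0157). With length and GC trends taken out, Dnmt3a (F = 17.4, adjusted p = 7.8e-05) and Dnmt3b (F = 7.71, adjusted p = 0.0042) passed as well, and the F of Tet3 was 63.7.

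The low level of Tet3 in subclone 4 was shared by the genes around it. Tet3 lies on chromosome 6 (chr6:83362373-83459084, minus strand), and its log2 level in subclone 4 was -0.57 relative to the mean of the other subclones. The 36 expressed genes that start within 2 Mb of it had a median of -0.55, and all 36 were below 0, while the median over all genes was 0.00. In the 4 libraries of subclone 4 the neighbours had medians of -0.59, -0.53, -0.57 and -0.54 relative to the mean of the other subclones, and Tet3 itself had -0.67, -0.46, -0.54 and -0.59. In the 16 libraries of the other subclones the median of the neighbours ran from -0.19 to 0.11. Tet3 itself was about as low in 2 of those libraries, the ones low in long transcripts, at -0.53 in subclone 3 replicate 2 and -0.43 in subclone 5 replicate 1, and it ran from -0.20 to 0.34 in the other 14. Along the chromosome the shift was not uniform: genes 20 to 30 Mb before Tet3 had a median of 0.39, those 30 to 60 Mb before it had medians between -0.06 and 0.07, and those from 20 Mb before to 50 Mb after it had medians between -0.59 and -0.51. Genes 60 to 80 Mb before it were again low (medians -0.52 and -0.55), and those 50 to 70 Mb after it were near 0 (0.00 and 0.02). The genes whose levels were most like Tet3 over the 20 subclone libraries included Alms1, which starts 2.23 Mb away (Pearson r = 0.977 among 11987 genes), with an unnamed gene, ENSMUSG00000003178 (r = 0.976), and Dop1b on chromosome 16 (r = 0.976). These correlations share depth, transcript length and the same libraries, and are a description.

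**Figure D3:**
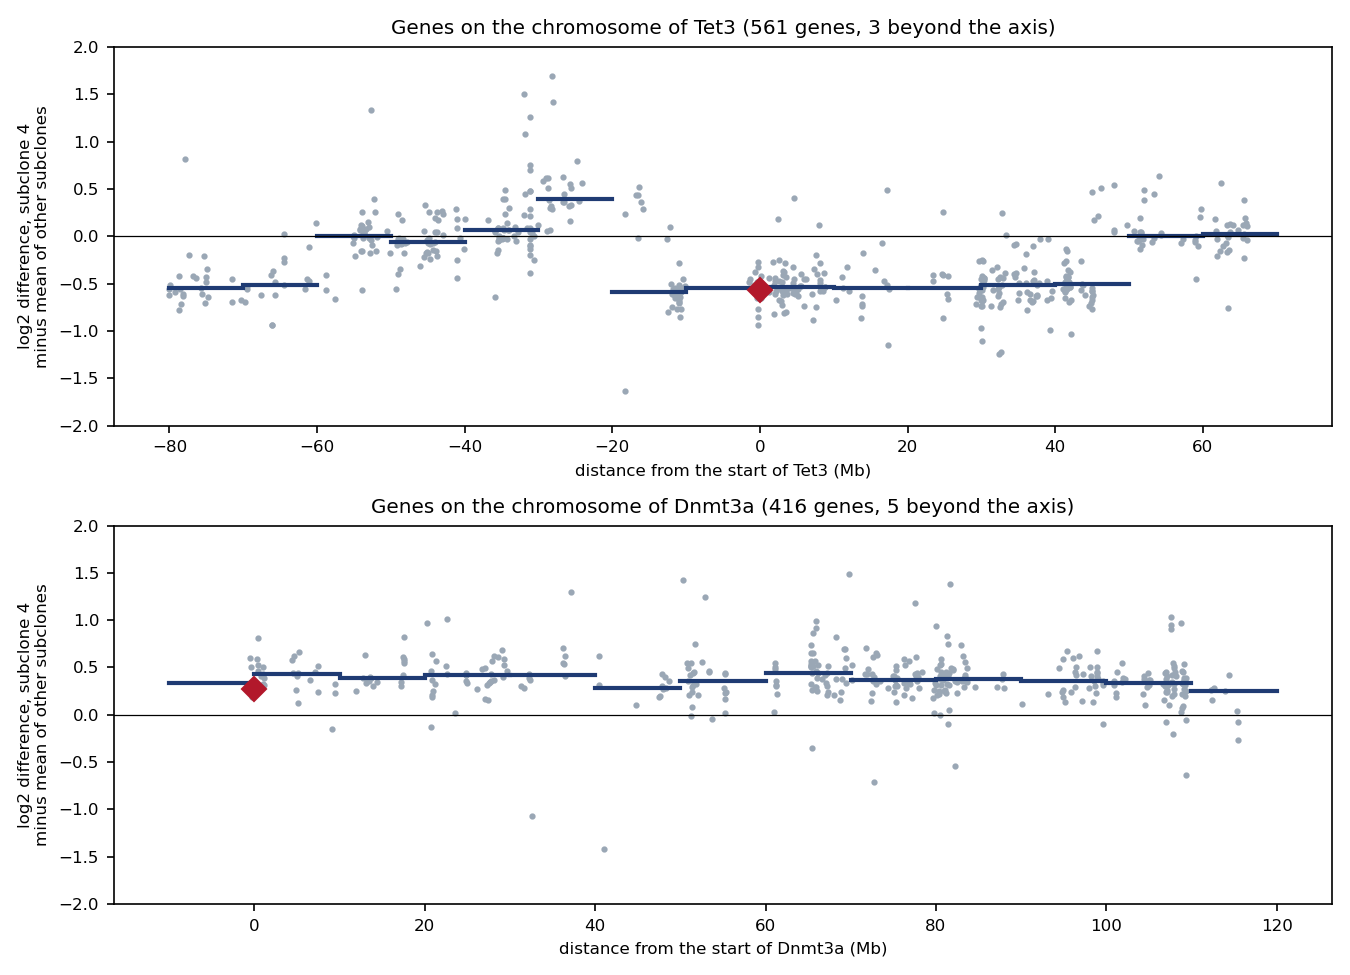
Log2 level in subclone 4 minus the mean of the other subclones for expressed genes on the chromosome of Tet3 (upper) and of Dnmt3a (lower), by distance in Mb from the start of that member. Grey points are genes, blue lines are medians of 10-Mb steps with at least 5 genes, and the red diamond is the member: Tet3 lies at -0.57 within a stretch near -0.5, and Dnmt3a at 0.27 on a chromosome that lies above 0 throughout.

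Dnmt3a, on chromosome 12 (chr12:3806007-3914443, plus strand), also lay among shifted genes, but it followed them less closely than Tet3 did. Its mean was highest among the subclones in subclone 4 (22.2 ± 1.92 TPM, SD, n = 4) and lowest in subclone 5 (16.9 ± 3.42), although the difference among subclones did not pass before length and GC trends were removed (F = 3.85, adjusted p = 0.055). Relative to the other subclones its log2 level was 0.27 in subclone 4 and -0.24 in subclone 5. Its 16 expressed neighbours within 2 Mb had a median of 0.42 in subclone 4, with 0 of 16 below 0, and of -0.44 in subclone 5, with 16 of 16 below 0. Relative to the mean of subclones 1, 2, 3 and 5, Dnmt3a was at 0.18 to 0.45 in the libraries of subclone 4. Its neighbours there had medians of 0.38 to 0.44. In subclone 5 it was at -0.50, 0.06, -0.26 and 0.15, with neighbours at -0.53, -0.15, -0.23 and -0.14. Replicate 1 there is low in long transcripts. Against WT5, Dnmt3a in subclone 4 did not pass (log2 difference -0.056, limma adjusted p = 0.95), while chromosome 12 had a median of 0.26. Of the genes of chromosome 12, 70.8% differed among the subclones, and of chromosome 6, 59.7%, while between 17.5% and 29.2% did on the other autosomes. In the same comparison the neighbours of the other members lay near 0: in subclone 4 the median of the genes within 2 Mb was 0.04 for Dnmt1, -0.04 for Dnmt3b, 0.02 for Tet1, 0.04 for Tet2, 0.02 for Tdg and -0.03 for Mbd2. Only RNA is in these files, and what the genes of these stretches share besides position was not tested. The genes most like Dnmt3a over the subclone libraries were Ralgapa1 (r = 0.946) and Dicer1 (r = 0.938), both on chromosome 12, and Sbno2 (r = 0.937), and those most like Dnmt3b were Prpf39 (r = 0.906), 2700081O15Rik (r = 0.906) and Tchp (r = 0.898).

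Tet1, the oxidase best known from embryonic stem cells and germ cells, was near the floor of the tables, where the lowest value above 0 is 0.01 TPM. It read 0.18, 0.13, 0.15 and 0.17 TPM in polyclonal cells and 0.11, 0.07, 0.16 and 0.24 in WT5, which overlapped (adjusted p = 0.20). In subclone 1 it read 0.35, 0.47, 0.52 and 0.66, above all WT5 values, with a z-score difference of 0.594 (SE 0.124, adjusted p = 0.0074, log2 difference 1.89). This call was lost in 6 of 8 fits without 1 library (adjusted p from 0.0041 to 0.0227 over the 8). In subclone 4 a single library, replicate 2, stood at 0.76 against 0.10 to 0.26 in the others. Even in subclone 1, Tet1 made up 1.68% ± 0.390 of the summed TPM of the Tet genes.

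Tet2 and Tet3 thus accounted for nearly all Tet transcripts, in shares that differed between lines. Tet2 made up 39.9% ± 3.45 (SD, n = 4) in polyclonal cells, 23.2% ± 1.48 in WT5 and 35.5% ± 1.28 in subclone 4, where Tet3 was low. In subclones 1, 2, 3 and 5 it made up 25.5% to 30.0% on average. The ranges of polyclonal cells (36.6% to 43.4%) and WT5 (21.5% to 25.1%) were far apart, and the range of subclone 4 (33.9% to 36.9%) overlapped that of polyclonal cells.

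Tdg, the glycosylase that removes oxidised methylcytosine, was abundant at 71.8, 69.8, 73.6 and 69.5 TPM in polyclonal cells and 78.5, 74.3, 87.1 and 82.6 in WT5. The WT5 values were all higher, but no more so than those of other genes, and the z-score difference was -0.00722 (SE 0.0164, adjusted p = 0.70). In the subclones Tdg averaged 61.2 to 65.9 TPM, and all 20 values lay below the lowest WT5 value. As for Tet2, line and deposit cannot be told apart in a difference that all subclones share. The decrease passed in subclone 1 (0.799 times the WT5 mean, z-score difference -0.0839, SE 0.0162, adjusted p = 0.0053). In subclones 2 to 5 the adjusted p was 0.0273, 0.0103, 0.0254 and 0.0221, and all 5 passed when WT5 and the subclones, 24 libraries, were fitted together. The call in subclone 1 was lost in 7 of 8 fits without 1 library, with adjusted p from 0.0033 to 0.0186.

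Values of Tdg carry an uncertainty of their own. Of the 50-base stretches in its transcripts, 41.2% also occur in the near copies Tdg-ps, Gm9855 or Gm5597, and 18.9% of 150-base stretches do, so reads could be divided among these genes. Tdg-ps was listed at 16.3 ± 2.00 TPM (SD, n = 4) in polyclonal cells and 1.48 ± 0.169 in WT5, a differential expression (z-score difference -1.20, adjusted p = 1.3e-07). Gm9855 was listed at 34.3 ± 2.87 and 46.7 ± 2.29 TPM. Their sum with Tdg was 122 ± 2.90 TPM in polyclonal cells and 129 ± 6.83 in WT5. The sum averaged 99.3 to 110 TPM in the subclones, lower than in WT5 with an adjusted p of 0.0032 in subclone 1 and of 0.0124 to 0.0944 in the others. Among the other members, 9.8% of the 50-base stretches of Dnmt3b also occur in other genes, and its near copy Dnmt3c was listed at 0 in all libraries.

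**Figure D4:**
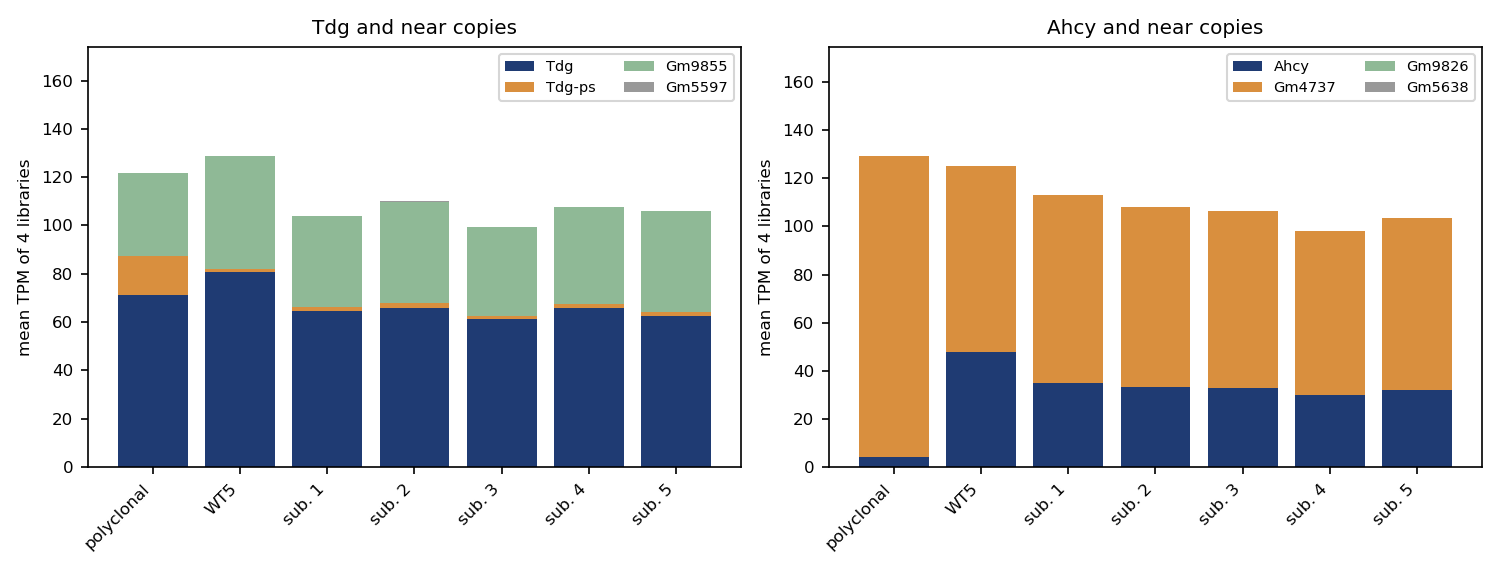
Stacked mean TPM of 4 libraries per group for Tdg (left) and Ahcy (right) with the genes that share long stretches of their transcripts. The bars of polyclonal cells and WT5 differ mainly in how the sum is divided: Tdg-ps falls from 16.3 to 1.48 TPM, and Ahcy stands at 4.14 against 47.7 TPM, while the sums are 122 and 129 TPM for Tdg and 129 and 125 TPM for Ahcy.

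Mbd2, the reader of methylated CpG, had the highest mean of the 9 genes in every group, although its range overlapped that of Dnmt1 in subclones 2, 3 and 5. It read 95.3, 86.3, 86.6 and 91.8 TPM in polyclonal cells and 104, 121, 115 and 108 in WT5. The ranges were separate, but the difference of 1.24-fold did not pass (z-score difference 0.0378, SE 0.0211, adjusted p = 0.139), and without z-scores it did (log2 difference 0.31, adjusted p = 0.0020). In the subclones Mbd2 averaged 98.2 to 106 TPM, no comparison with WT5 passed (adjusted p from 0.315 to 0.930), and the subclones did not differ past the threshold (F = 1.98, adjusted p = 0.237).

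The partners of these enzymes were examined through gene lists, and their counts between WT5 and polyclonal cells stand beside the 65.5% of all genes that passed, 34.5% as higher and 30.9% as lower. Of 7 partners of maintenance methylation, 4 passed between WT5 and polyclonal cells, 2 in each direction. Cdca7, which activates the remodeller Hells, was 49.2 ± 2.07 TPM (SD, n = 4) in polyclonal cells and 69.7 ± 1.89 in WT5 (z-score difference 0.0965, adjusted p = 5.5e-04), and its relative Cdca7l fell from 45.4 ± 2.24 to 32.2 ± 0.942 (-0.227, adjusted p = 8.8e-06). Cdca7l shares 20.8% of its 50-base stretches and 14.9% of its 150-base stretches with other genes, so its reads could be divided. Outside the rule for named genes, and chosen after its values were seen, Uhrf1, which guides Dnmt1 to newly copied DNA, was 160 ± 8.92 and 174 ± 2.30 TPM (adjusted p = 0.112). Among the subclones, members of this list that passed against WT5 were all higher: 2, 4, 2, 4 and 0 of 7 in subclones 1 to 5, where 12.7%, 13.4%, 8.65%, 18.2% and 10.2% of all genes were called higher. Cdca7 differed among the subclones (F = 14.0, adjusted p = 2.9e-04), from 70.5 ± 7.99 TPM in subclone 5 to 89.6 ± 2.78 in subclone 4.

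Of 9 readers of methyl-CpG, Mbd2 not counted, 6 passed between WT5 and polyclonal cells, 4 as higher. Zbtb38 and Zbtb4, zinc finger proteins that bind methylated DNA, rose from 5.12 ± 0.634 to 12.8 ± 1.24 TPM (z-score difference 0.355, adjusted p = 1.9e-05) and from 5.97 ± 0.449 to 13.4 ± 1.60 (0.302, adjusted p = 2.6e-05). The list had a median log2 difference of 0.52, against 0.24 over all genes. Of 12 NuRD subunits 7 passed, 3 as higher, with Chd3, an ATPase of the complex, at 56.1 ± 0.283 and 111 ± 4.01 TPM (0.253, adjusted p = 1.6e-06) and the histone binding Rbbp4 at 264 ± 16.6 and 145 ± 1.26 (-0.338, adjusted p = 3.1e-07). Rbbp4 shares 17.2% of its 50-base stretches and 12.75% of its 150-base stretches with other genes, so its reads could be divided too.

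Of 11 genes of base excision repair, which completes the erasure that Tdg begins, 6 passed, a smaller share than over all genes, and 5 of these were lower in WT5. Parp1, a sensor of strand breaks, was 89.4 ± 2.75 TPM in polyclonal cells and 76.8 ± 1.3 in WT5 (z-score difference -0.135, adjusted p = 1.3e-05), whereas Lig3, which seals the nick, rose from 12.6 ± 0.828 to 23.0 ± 1.47 (0.209, adjusted p = 3.4e-05). Lig3 shares 23.8% of its 50-base stretches and 21.5% of its 150-base stretches with Rffl, so reads could be divided there as well. Of 11 tested genes that supply or counter the cofactors of the Tet enzymes 7 passed, a share like that of all genes, 6 as lower. Idh1, a source of the alpha-ketoglutarate that these oxidases need, went from 43.5 ± 3.35 to 22.02 ± 0.716 TPM (-0.384, adjusted p = 5.0e-07). The median log2 difference was 0.01 for repair and -0.06 for Tet cofactors.

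Of 11 tested genes for synthesis of the methyl donor 9 passed, 3 as higher. Ahcy, which removes the by-product of methylation, was listed at 4.14 ± 0.234 TPM in polyclonal cells and 47.7 ± 2.7 in WT5, the only list gene besides Tdg-ps that was differentially expressed (z-score difference 1.07, adjusted p = 6.1e-09). That value depended on near copies: 68.7% of its 50-base stretches occur in other genes, chiefly Gm4737, and summed with them it was 129 ± 5.86 and 125 ± 3.82 TPM (-0.0766, adjusted p = 7.0e-04). Of 14 tested genes that direct methylation to or away from sites 11 passed, 7 as higher. Zfp445, which protects methylation at imprinted loci, was 8.67 ± 1.70 and 22.7 ± 1.14 TPM (0.383, adjusted p = 6.5e-05), and Gadd45b, linked to active demethylation, was 58.1 ± 5.81 and 135 ± 2.78 (0.332, adjusted p = 8.1e-06). In the subclones Gadd45b averaged 59.4 to 83.3 TPM.

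Germline genes that are usually silenced by promoter methylation stayed near or at the floor. Of 15 such genes, 2 had a TPM above 0 throughout the WT5 and polyclonal libraries, and 0 passed with limma. At an unadjusted p below 0.05 the count was 1 of 2, against 77.1% of all genes, since Brdt had an unadjusted limma p of 0.0262 and Sycp3, named as the other gene tested and a protein of the meiotic chromosome axis, one of 0.154. Dazl, Mael and Mov10l1 were listed at 0 in all libraries. In subclone 4, Brdt, a testis bromodomain protein, reached 1.08 ± 0.146 TPM (SD, n = 4) against 0.288 ± 0.106 in WT5 (z-score difference 0.609, adjusted p = 0.0017), and it differed among the subclones (F = 12.7, adjusted p = 4.8e-04). Tdrd1, a germline RNA pathway protein, passed as higher in subclones 4 (adjusted p = 0.0045) and 5 (adjusted p = 0.0065), at 0.125 and 0.138 TPM against 0.0375 in WT5. Among the subclones Tdrd1 did not differ past the threshold (F = 1.46, adjusted p = 0.37). Line and deposit cannot be told apart in its comparison with WT5. These levels are low, and 2 or 3 tested genes do not describe the list.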

How the data were processed

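RNA-seq of 28 libraries was analysed from 2 deposited tables of TPM with the same 45706 genes, the subclones being in one of them only. Per the labels and the study's methods, the authors aligned reads to GRCm38 with STAR 2.7.3a, with Ensembl 81 annotation, and estimated TPM with RSEM 1.3.1. CASAVA 1.8 is named in the labels as well. Whether the counting used strand is not given in the sources used here. Read depth is not kept in TPM, so precision rests on the spread over 4 libraries per group.

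Genes with TPM above 0 in all libraries compared were log2 transformed without a pseudocount, z-scored within each library and fitted with limma 3.58.1 (R 4.3.3), comparing only the groups concerned, with Benjamini-Hochberg adjustment over all genes tested. Libraries were grouped by the labels' line names. Summaries used Python 3.11.15, pandas 2.3.3, scipy 1.17.1 and statsmodels 0.14.6. The neighbour and likeness descriptions were limited to a mean TPM of 1 or more. Promoter windows came from RefSeq (GRCm38.p6), and gene coordinates from GENCODE on GRCm38.

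All 9 members are named. Of each gene list, those named were the differentially expressed genes, the 2 with the largest z-score difference between WT5 and polyclonal cells and the 1 with the largest F among subclones, if they passed. Some genes that this rule names are not reported here. The 3 genes most like each of the 3 members with the largest F and a mean TPM of at least 1 were named, as were near copies. Members and lists were chosen with earlier results of these data known. Alternatives covered the test, pseudocount, filter, scaling, thresholds, a replicate block, libraries left out and a common fit. Those for transcript length and GC content, near copies and the 2 libraries low in long transcripts were added after seeing the data.

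The limma steps were tested on simulated data in which 200 genes changed. In WT5 against polyclonal cells (13723 genes), 51.5% of 1.5-fold and 76.5% of 2-fold changes were recovered. In subclone 1 against WT5 (13860 genes), 34.5% and 73.0% were recovered. In the data, 65.5% and 26.3% of genes passed in these 2 comparisons, far more than were changed here. The Benjamini-Hochberg adjustment depends on that share, so the recovery rates do not give those of the real fits.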

Additional observations from a re-analysis of the deposited data

Results flagged for a closer look

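Among 58 groups of 4 libraries checked over the members, 6 held a library that stood apart from the other 3 by Dixon's criterion, which by chance flags about 5% of groups. Dnmt3b was 3.56 TPM in subclone 4 replicate 1, under the others of its line, and Tet2 was 8.33 TPM in subclone 2 replicate 2, above them. Tet3 was 20.61 TPM in WT5 replicate 3 and Mbd2 was 105.26 TPM in subclone 4 replicate 2, each above the rest. For Dnmt3l, the flagged values were the only ones above 0, at 0.04 TPM in polyclonal replicate 3 and 0.1 TPM in subclone 5 replicate 4. The criterion flags such a group whatever the value, so the 5% does not apply to these 2 of the 6.

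Differences between subclones passed limma's test for 2 members. Tet1 was higher in subclone 1 than in subclone 3 (z-score difference 0.849, adjusted p = 0.0059) and than in subclone 5 (0.802, adjusted p = 0.0087). Tet3 in subclone 4 was lower than in subclone 1 (subclone 1 minus subclone 4, 0.192), subclone 2 (subclone 2 minus subclone 4, 0.206), subclone 3 (subclone 3 minus subclone 4, 0.170) and subclone 5 (subclone 4 minus subclone 5, -0.208).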

How the results depend on the processing

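Between WT5 and polyclonal cells 4 members passed, with 3 to 4 when 1 library was left out, and Tet3, which had not passed, turned to -0.12 (z-score difference) once length and GC trends were taken out. The Dnmt3a call there was also lost with the unequal-variance test (adjusted p = 0.0102) and with TPM rescaled over nuclear protein-coding genes (0.0438). In subclone 1, 3 passed against WT5, with 1 by the unequal-variance test, 1 with the replicate block and 1 to 3 without 1 library, and 1 was differentially expressed, against 0, where a log2 difference above 1 was used without z-scores. In subclone 2, 0 passed, against 1 with nuclear genes rescaled, 2 with all 24 libraries fitted together and 4 at an adjusted p below 0.05. In subclone 3, 1 passed, against 0 by the unequal-variance test, 0 with the replicate block, 2 with a pseudocount of 0.1 or 1, a mean TPM of at least 1, nuclear genes rescaled, length and GC trends taken out, all 24 libraries together or an adjusted p below 0.05, and 0 to 1 without 1 library. In subclone 4, 2 passed, with 2 in each fit without 1 library and 3 without z-scores, with all 24 libraries together or at an adjusted p below 0.05. With no filter the count was also 3, but the third was Dnmt3l, listed at 0 in every WT5 and subclone 4 library. Its z-score there depends only on the mean and SD of each library, so that call is not a change in Dnmt3l. In subclone 5, 1 passed, against 0 with the replicate block, 2 with length and GC trends taken out, 3 with all 24 libraries together and 3 at an adjusted p below 0.05. Among subclones 2 passed, against 1 by the unequal-variance test, with a mean TPM of at least 1, with no filter or without the 2 libraries low in long transcripts, 0 without z-scores, 4 with length and GC trends taken out, and 1 to 2 without 1 library. Over all genes the number that passed often moved too. For subclone 1, 3644 of 13860 passed, against 2043 by the unequal-variance test and 1040 with the replicate block. For subclone 2 it was 3609, against 3605 with all 24 libraries together and 5931 at an adjusted p below 0.05. For subclone 3 it was 2708, against 4471 with all 24 libraries together. Among subclones it was 3455 of 14031, against 2491 without z-scores and 4307 with length and GC trends taken out.

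Replicate numbers do not pair the libraries: deviations of same-numbered libraries correlated between -0.328 and 0.153. The replicate block kept 4 calls between WT5 and polyclonal cells and lost Tet1 (adjusted p = 0.0125) and Tdg (0.0338) in subclone 1, Tet2 in subclone 3 (0.0109) and Tet2 in subclone 5 (0.0137). Of the values for single members under all alternatives, 1072 stayed on the same side of the threshold, 52 no longer passed and 20 newly passed. In 1 more, Tet3 between WT5 and polyclonal cells, the value newly passed with its direction reversed. Differences that passed in neither setting could change sign within the 1072, as for Dnmt1 in subclone 1 (-0.078 to 0.011), and F values have no direction. Apart from changes in the threshold or test itself, the cause of these changes was not tested. Unknown depth limits Tet1 and Dnmt3l most, both below 1 TPM.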

Other observations

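Genes with the largest F of their list among the subclones lay on several chromosomes, and those named here are examples, not a count. On chromosome 12, which also holds Dnmt3a, Mthfd1, an enzyme of folate metabolism, was 72.4 ± 2.38 TPM (SD, n = 4) in subclone 4 and 41.6 ± 3.75 in subclone 5, with 55.7 to 61.2 in the others (F = 81.8, adjusted p = 9.3e-09 with limma). Rrm2, a subunit of ribonucleotide reductase, was 283 ± 8.10 and 179 ± 12.0 TPM (F = 98.1, adjusted p = 3.2e-09), and Mta1, a NuRD subunit, 73.8 ± 6.03 and 50.3 ± 7.10 (F = 11.2, adjusted p = 9.1e-04). On chromosome 6, which holds Tet3, the glycosylase Mbd4 was 9.63 ± 0.560 TPM in subclone 4 and 12.4 to 14.1 in the others (F = 23.6, adjusted p = 1.6e-05). Chosen after their values were seen, Mcm2, of the replicative helicase, was 135 ± 3.51 TPM in subclone 4 against 184 to 208, and Mat2a, which makes the methyl donor, was 106 ± 2.50 against 119 to 134. Gadd45a, also on chromosome 6 and chosen in the same way, was higher in subclone 4, at 88.3 ± 3.09 TPM against 57.8 to 69.1.

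Other list genes on other chromosomes differed too. Apex1, the endonuclease of base excision repair, was 208 ± 4.44 TPM in subclone 4 and 143 ± 7.80 in subclone 5 (F = 48.4, adjusted p = 2.4e-07). Apex1 shares 51.65% of its 50-base stretches and 37.9% of its 150-base stretches with other genes, among them Pip4p1, so its reads could be divided. Slc2a1, a transporter of glucose and dehydroascorbate, was 136 ± 5.46 TPM in WT5, 62.4 ± 1.47 in subclone 4 and 63.7 ± 4.24 in subclone 5, with 84.2 to 94.7 in the rest (F = 59.0, adjusted p = 7.1e-08). Of the kidney epithelium list, Cdh16 rose from 30.9 ± 1.58 TPM in polyclonal cells to 89.2 ± 1.76 in WT5, and Krt8 from 360 ± 25.8 to 1005 ± 38.7. Krt8 shares 29.7% of its 50-base stretches and 8.51% of its 150-base stretches with other genes, so its reads could be divided. Of the 9 tested genes of that list, 5 passed as higher in WT5 and 2 as lower. Of the proliferation list, Mcm3 fell from 368 ± 3.63 to 224 ± 6.43 TPM and Mcm6 from 433 ± 14.7 to 270 ± 7.36, while of its 14 genes 4 passed as higher and 6 as lower.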
